A study of Homo sapiens with 36 samples.

Results

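The metallothioneins were followed member by member: 8 genes, MT1A, MT1E, MT1F, MT1G, MT1H, MT1M, MT1X and MT2A, were taken by symbol from the 60591 genes of the mRNA count table. CoCl2 raised MT2A, MT1X, MT1E and MT1F in both lines, where 9.13% (Caco-2) and 17.4% (HT-29) of all genes tested passed the same thresholds upwards (FDR under 0.05 and log2 fold change over 1). MT1G in both lines and MT1H in Caco-2 also passed, but had reads enough to be tested only through their CoCl2 libraries. OD raised MT2A in Caco-2 and lowered MT1E and MT2A in HT-29. MT1G was also called lower there, on few reads and tested only through its CoCl2 libraries. The HT-29 calls of MT1G and MT2A with OD were lost in some fits that left out 1 library. The summed reads of the 8 members went from 1.72 to 70.6 per 100000 reads with CoCl2 in Caco-2 and from 7.18 to 63.6 in HT-29 (means of 3 libraries).

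Caco-2 and HT-29 are human colorectal cancer cell lines, each a single line. Caco-2 was grown for 21 days to differentiate into an enterocyte-type layer before treatment, and the culture time of HT-29 is not given in the sources used here, so the line and its culture state cannot be told apart. Each line formed 3 groups of 3 libraries: control cells with DMSO at 0.5 µl per ml, cells with CoCl2 at 300 µM, and cells with an oxyquinoline derivative (OD) at 5 µM in DMSO, with 24 h of treatment. Both agents inhibit the prolyl hydroxylases of hypoxia-inducible factor (HIF) and served to imitate hypoxia, and each was added at a single dose and time. The sources differ on whether the CoCl2 medium held DMSO, so any effect of the solvent on that comparison was not tested.

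Metallothioneins are small proteins rich in cysteine that bind zinc and copper, buffer these metals in the cytosol, and take up toxic metals such as cadmium. MT2A and the MT1 genes arose by duplication and are active in many tissues, including the intestinal epithelium, where they take part in zinc balance. Their transcription is driven mainly by MTF1, a zinc sensor that binds metal response elements before the start of each gene, and glucocorticoids and oxidative stress also raise it.

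The 8 genes lay on chromosome 16 over 75.6 kb (GRCh38, GENCODE v44), with another metallothionein gene, MT1B, between MT1A and MT1F. MT2A was the first at chr16:56608584-56609497 on the plus strand, followed by MT1E at chr16:56625475-56627112, MT1M at chr16:56632659-56633981, MT1A at chr16:56638666-56640087 and MT1F at chr16:56657731-56660698, all on the plus strand. MT1G followed at chr16:56666730-56668065 on the minus strand, then MT1H at chr16:56669814-56671129 and MT1X at chr16:56682470-56684196 on the plus strand. A long non-coding gene overlapped MT1X on the same strand, so their reads could not be separated there. Because the members are paralogs, the windows of 75 bases, the read length, that matched no other annotated transcript and no other place in the genome were counted for each. Matches to a gene overlapping the member itself were set aside in this count, and 248 of the 1871 windows of MT1X were shared with its overlapping gene. The windows so counted made up from 92.4% of those of MT1E to 100% of those of MT1A, MT1F and MT2A. With 2 mismatches allowed, the share of windows close to another metallothionein transcript was 0.255% for MT1F, 4.17% for MT1X and 9.43% for MT2A, but 15.0% for MT1E, 17.1% for MT1G, 21.5% for MT1H and 28.2% for MT1M. Windows came from all annotated transcripts of a member, whether or not these cells make them. These shares are therefore not shares of reads, and they may understate sharing where long transcripts are annotated. How reads with more than 1 place were counted is not given in the sources used here, so small values of MT1G, MT1H and MT1M beside large ones of their relatives are uncertain.

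The promoters of 3 of the 8 members were listed in the RefSeq table used (GRCh38.p14), and they are shown for their matches to the letters of the metal response element. Each line gives the 250 bases before the start, on the plus strand, at chr16:56608334-56608583 for MT2A, chr16:56682220-56682469 for MT1X and chr16:56669564-56669813 for MT1H. Capitals mark matches to the core of the metal response element, TGCACNC or TGCGCNC on either strand.
MT2A: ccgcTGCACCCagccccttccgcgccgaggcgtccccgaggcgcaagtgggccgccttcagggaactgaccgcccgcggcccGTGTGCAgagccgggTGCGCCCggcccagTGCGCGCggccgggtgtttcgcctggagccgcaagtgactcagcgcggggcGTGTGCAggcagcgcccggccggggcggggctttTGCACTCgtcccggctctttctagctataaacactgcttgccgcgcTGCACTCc
MT1X: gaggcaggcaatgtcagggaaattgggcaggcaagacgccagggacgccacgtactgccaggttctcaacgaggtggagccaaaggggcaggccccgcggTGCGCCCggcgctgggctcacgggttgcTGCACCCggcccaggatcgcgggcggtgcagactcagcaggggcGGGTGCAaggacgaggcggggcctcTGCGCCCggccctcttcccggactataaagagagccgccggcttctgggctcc
MT1H: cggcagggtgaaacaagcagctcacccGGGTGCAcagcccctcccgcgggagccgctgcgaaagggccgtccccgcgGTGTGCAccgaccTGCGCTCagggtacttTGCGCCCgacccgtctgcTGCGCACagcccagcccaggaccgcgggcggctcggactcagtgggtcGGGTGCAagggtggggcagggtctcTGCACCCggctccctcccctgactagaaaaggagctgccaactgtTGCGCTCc

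MT1H held 8 matches, MT2A held 7 and MT1X held 4. Of all 35116 promoters in the table, 24.8% held at least 1 such match over the same 250 bases, 1.58% held 3 or more and 0.12% held 5 or more. Of the other metallothioneins, MT1B and MT4 were listed in the table and held 3 matches each, and both had 0 reads in every CoCl2 library of both lines. The core of the hypoxia response element, ACGTG or GCGTG on either strand, matched once in MT2A and once in MT1X, against 43.2% of all promoters with at least 1 match. The single match in MT2A began 90 bases before the start and overlapped a metal response element match on the other strand. In MT1H these letters did not occur in the window. A match of letters is a description and not a bound site.

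**Figure D1:**
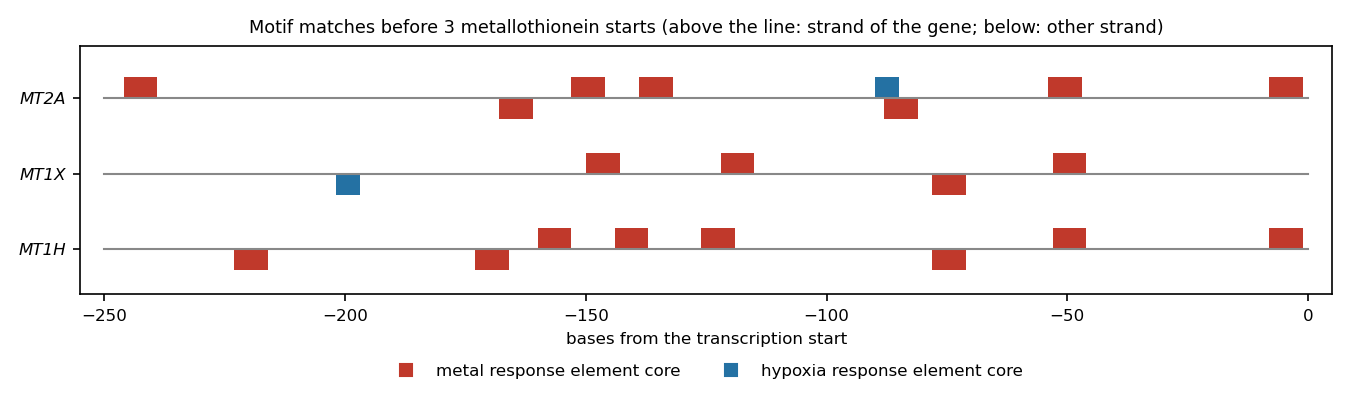
Positions of motif matches before the starts of MT2A, MT1X and MT1H, in bases from the transcription start (horizontal axis), with matches on the strand of the gene above each line and matches on the other strand below it. Red blocks are metal response element cores (7, 4 and 8) and blue blocks are hypoxia response element cores (1, 1 and 0).

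Total counts per mRNA library ran from 12925719 to 22332639. Levels are counts per 1000000 reads (CPM) after TMM scaling of the 18 libraries together, as mean ± SD over the 3 replicates of a group. The labelled cell types were checked against defining markers: all 7 epithelial markers had over 3 counts in every library of both lines. The 7 small-intestinal enterocyte markers summed to 2879 to 4450 CPM in Caco-2 but to 15.8 to 37.3 CPM in HT-29. Most of the Caco-2 sum was APOA1, at 2501 ± 157 CPM in controls and 3655 ± 403 with CoCl2. With CoCl2 in Caco-2, APOA1 and APOA4 had higher means than in controls, and SI, FABP1, ALPI, FABP2 and ANPEP had lower ones. The summed markers of goblet cells, fibroblasts, leukocytes and endothelium were at most 56.8, 34.7, 5.53 and 12.2 CPM in any library. The sources call the replicates biological without saying more, so p-values measure the spread between these libraries, and in bulk RNA a change in the share of cells that transcribe a gene and a change per cell cannot be told apart.

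In untreated cells MT1E, MT2A and MT1F differed in level between the lines. MT1E had 11, 16 and 28 reads in the Caco-2 controls but 703, 709 and 1183 in the HT-29 controls, which is 1.20 ± 0.65 against 44.8 ± 3.73 CPM. Every HT-29 library was far above every Caco-2 library (log2 difference of HT-29 less Caco-2 5.26, SE 0.18, edgeR FDR 6.13e-24). MT2A was also higher in HT-29, at 15.0 ± 1.75 against 3.74 ± 1.67 CPM (log2 difference 2.05, SE 0.16, FDR 1.23e-13). MT1F went the other way, at 8.24 ± 2.03 CPM in Caco-2 and 1.17 ± 0.23 in HT-29 (log2 difference -2.78, SE 0.20, FDR 1.23e-14). MT1X was low in both lines, at 1.70 ± 0.776 and 1.40 ± 0.0891 CPM, and its difference did not pass (log2 difference -0.22, 95% interval -0.79 to 0.35, FDR 0.501), nor did that of MT1G (0.98, 95% interval -0.03 to 1.99, FDR 0.0823). A gene was called when its FDR, adjusted over all genes tested, was under 0.05 and its absolute log2 difference over 1. This made 3 of 6 tested members called between the lines, where 45.8% of all 17921 genes tested were called, 21.6% higher and 24.2% lower in HT-29. The count of members was thus near the share of all genes. MT1H, among the 6, had 0 reads in every control library. MT1G, also among the 6, had reads enough to be tested in each line only through its CoCl2 libraries. Neither is among the 3 called. The difference of MT1G was called without Caco-2 control replicate 2 (1.56, FDR 0.0275) or HT-29 control replicate 3 (1.25, FDR 0.0421).

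By these controls, each line had its own leading member. MT1F gave 55.8% of the member reads in Caco-2 controls and MT1E 71.2% in HT-29 controls, while MT2A gave 23.8% in both. Per kilobase of exons, MT1F (4.45 ± 1.10 CPM per kb) and MT2A (4.09 ± 1.82) led in Caco-2, with overlapping libraries. This length joins the exons of all annotated transcripts, 1852 bases for MT1F and 914 for MT2A, the latter its whole gene span. Without it, in CPM, MT1F (5.89 to 9.47) stood above MT2A (1.83 to 4.91) with no overlap. In HT-29, MT1E at 42.6 ± 3.54 CPM per kb stood above MT2A at 16.4 ± 1.91, with no overlap. In both, MT1X, MT1G, MT1A, MT1H and MT1M were at about 1 CPM per kb or less. Caco-2 control replicate 1 held fewer member reads (163) than replicates 2 and 3 (265 and 275) and was the lowest control library for MT2A, MT1X, MT1F and MT1E.

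**Figure D2:**
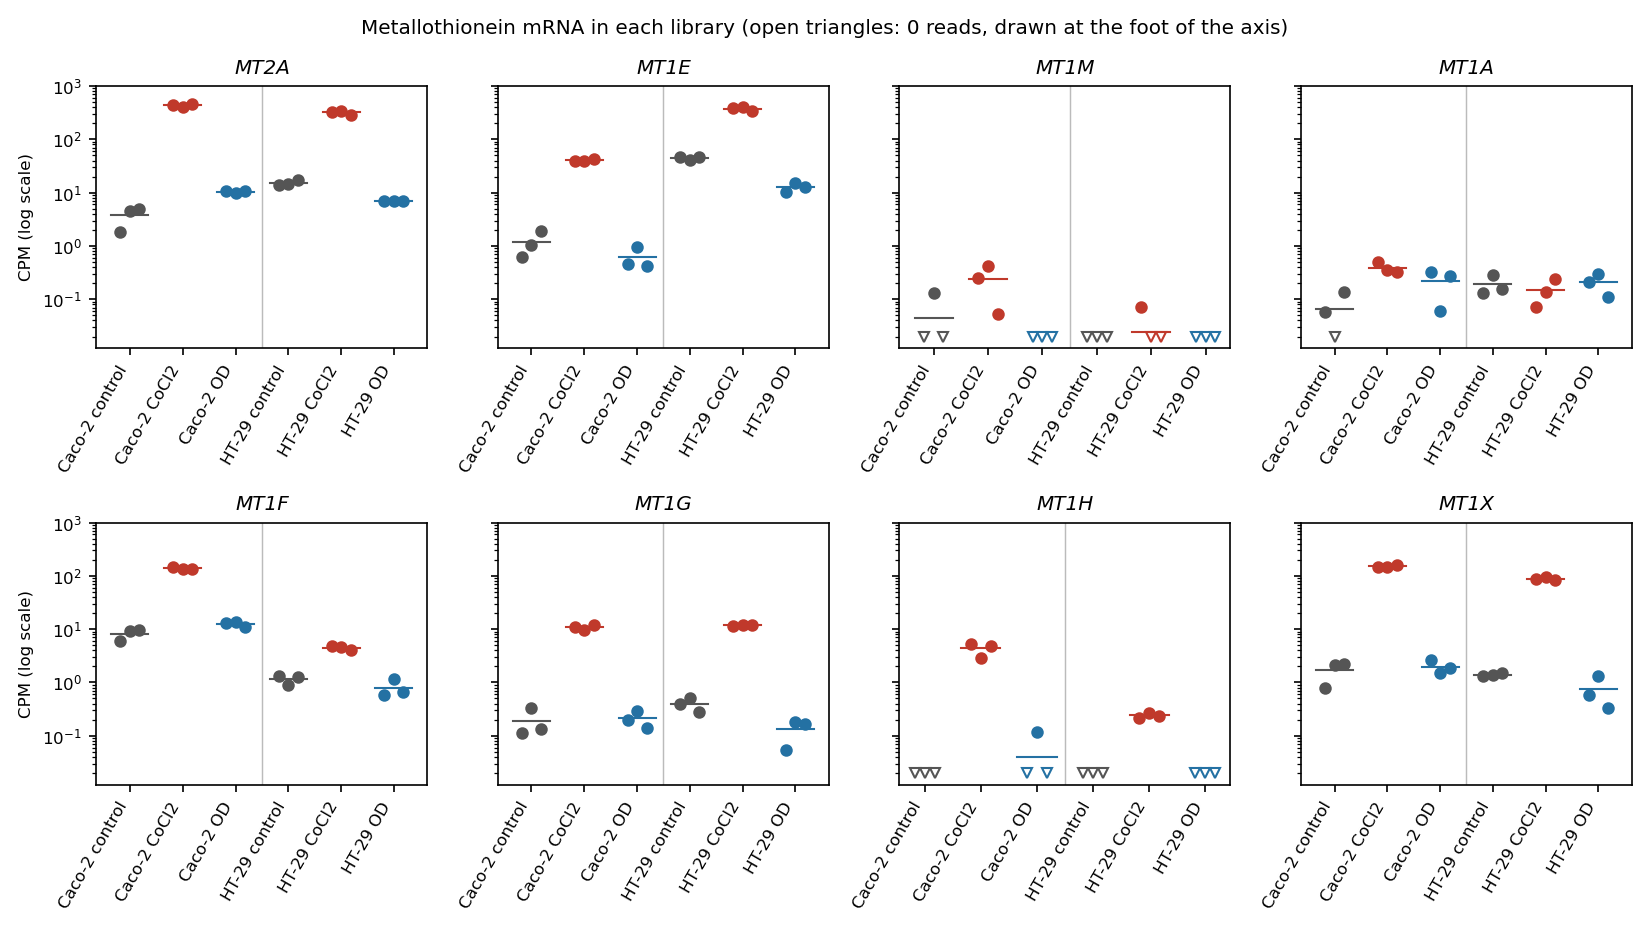
Level of each of the 8 metallothioneins in each of the 18 libraries, in CPM on a log axis, with grey for control, red for CoCl2 and blue for OD and a bar at each group mean. MT2A, MT1E, MT1F, MT1G and MT1X stand higher in all CoCl2 libraries than in the control libraries of the same line, and open triangles mark libraries with 0 reads.

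The first question was how each member responded to CoCl2, a metal salt. In Caco-2, MT2A had 1.83, 4.47 and 4.91 CPM in the controls and 442, 405 and 451 CPM with CoCl2. It was the member with the most reads in treated Caco-2, and its lowest treated library was far above its highest control (118-fold, log2 fold change 6.88, SE 0.16, FDR 7.97e-21). MT1X had 14, 32 and 32 reads in the controls and 1819, 2033 and 2978 with CoCl2 (log2 fold change 6.50, SE 0.16, FDR 3.74e-20). It reached 151 ± 6.67 CPM, again with no overlap between the groups.

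MT1F, the leading member in control Caco-2, went from 5.89, 9.34 and 9.47 CPM to 149, 132 and 137 CPM with CoCl2. The groups did not overlap, and its fold change of 17.0 was the smallest of the 6 (log2 4.09, SE 0.13, FDR 1.24e-18). MT1E went from 11, 16 and 28 reads to 483, 542 and 793 reads (log2 fold change 5.10, SE 0.20, FDR 1.79e-16). MT1G went from 2, 5 and 2 reads to 132, 136 and 224 (log2 fold change 5.77, SE 0.31, FDR 4.17e-14). Both rose in all 3 treated libraries without overlap.

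MT1H was at 0 reads in all 3 Caco-2 controls and had 64, 41 and 91 reads with CoCl2. Against a floor of 3 reads per library this is at least 22.7-fold higher, and edgeR gave an FDR of 9.67e-10. MT1A and MT1M did not pass the filter on low counts and were not tested. MT1A had 1, 0 and 2 reads in the controls and 6, 5 and 6 with CoCl2, a ratio of 5.96 with a counting interval of 1.72 to 31.7. MT1M had 0, 2 and 0 reads in the controls and 3, 6 and 1 with CoCl2, a ratio of 5.26 with an interval of 1.12 to 49.3, so that its groups overlapped. In all, 6 of 6 tested members were called higher in Caco-2, where 23.4% of 16034 genes were called and 9.13% were called higher. MT1G and MT1H passed the filter on low counts only through their CoCl2 libraries, so their calls add nothing to that count, and the other 4 of 4 were called. The median log2 fold change was 5.80 over these 4, 5.43 over the 6 with MT1H at its bound, and -0.03 over all genes tested.

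In HT-29, CoCl2 raised the 5 members that had reads enough to be tested. MT1E, already the leading member, went from 47.0, 40.5 and 46.9 CPM to 393, 401 and 339 CPM, 9.09-fold (log2 3.18, SE 0.08, FDR 5.50e-23). MT2A went from 13.7, 14.2 and 17.0 CPM to 329.8, 337 and 291 CPM, 22.7-fold (log2 4.50, SE 0.07, FDR 4.10e-27). In neither gene did any treated library come near a control library.

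MT1X had 20, 24 and 38 reads in the HT-29 controls and 1218, 1395 and 1063 with CoCl2, 67.3-fold and the largest change of the 5 (log2 6.07, SE 0.12, FDR 4.88e-25). MT1G went from 6, 9 and 7 reads to 156, 177 and 151 (log2 fold change 5.02, SE 0.20, FDR 2.55e-18). MT1F went from 20, 16 and 32 reads to 67, 69 and 50, the smallest change (4.11-fold, log2 2.04, SE 0.21, FDR 1.61e-09). All 5 tested members were called higher with no overlap between groups, where 41.3% of 15812 genes were called and 17.4% were called higher. MT1G passed the filter on low counts only through its CoCl2 libraries, and the other 4 of 4 were called. The median log2 fold change was 3.84 over these 4 and 4.50 over the 5, against -0.03 over all genes tested.

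The other members stayed near the detection limit in HT-29. MT1H had 0 reads in each control and 3, 4 and 3 with CoCl2, too near the floor of 3 reads for a fold. MT1A had 2, 5 and 4 reads in the controls and 1, 2 and 3 with CoCl2, a ratio of 0.763 with a counting interval of 0.232 to 2.25. MT1M had 1 read in all HT-29 libraries together. At this depth no change of MT1A or MT1M was detectable in HT-29.

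The difference in response between the lines was tested itself over all 18 libraries, as the log2 change in HT-29 less that in Caco-2. With CoCl2, MT2A rose less in HT-29 by 2.49 on the log2 scale (difference -2.49, SE 0.18, FDR 2.40e-13), MT1F by 2.16 (difference -2.16, SE 0.29, FDR 1.44e-07) and MT1E by 2.03 (difference -2.03, SE 0.24, FDR 1.41e-08). MT1X and MT1G rose by amounts whose difference did not pass, at -0.54 (95% interval -1.15 to 0.06, FDR 0.147) and -0.87 (95% interval -1.91 to 0.18, FDR 0.187). Thus 3 of 6 members tested were called lower in this comparison, where 21.6% of all genes were called and 13.8% were called lower. No estimate could be had for MT1H, which had 0 reads in all controls, so it counts among the 6 but could not be called. MT1G, also among the 6, had reads enough to be tested in each line only through its CoCl2 libraries. It is not among the 3 called.

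For MT2A and MT1E the smaller fold in HT-29 went with a higher control level, whereas MT1F had both a lower control level and a smaller fold there. The treated level of MT2A was 432 ± 24.3 CPM in Caco-2 and 319 ± 24.8 in HT-29. Treated MT1E was at 40.1 ± 1.77 and 378 ± 33.6 CPM, and treated MT1F at 139 ± 8.51 and 4.49 ± 0.446 CPM, so MT1E stayed higher in HT-29 and MT1F higher in Caco-2. MT1G reached 10.8 ± 1.09 and 11.7 ± 0.394 CPM, with overlapping libraries.

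**Figure D3:**
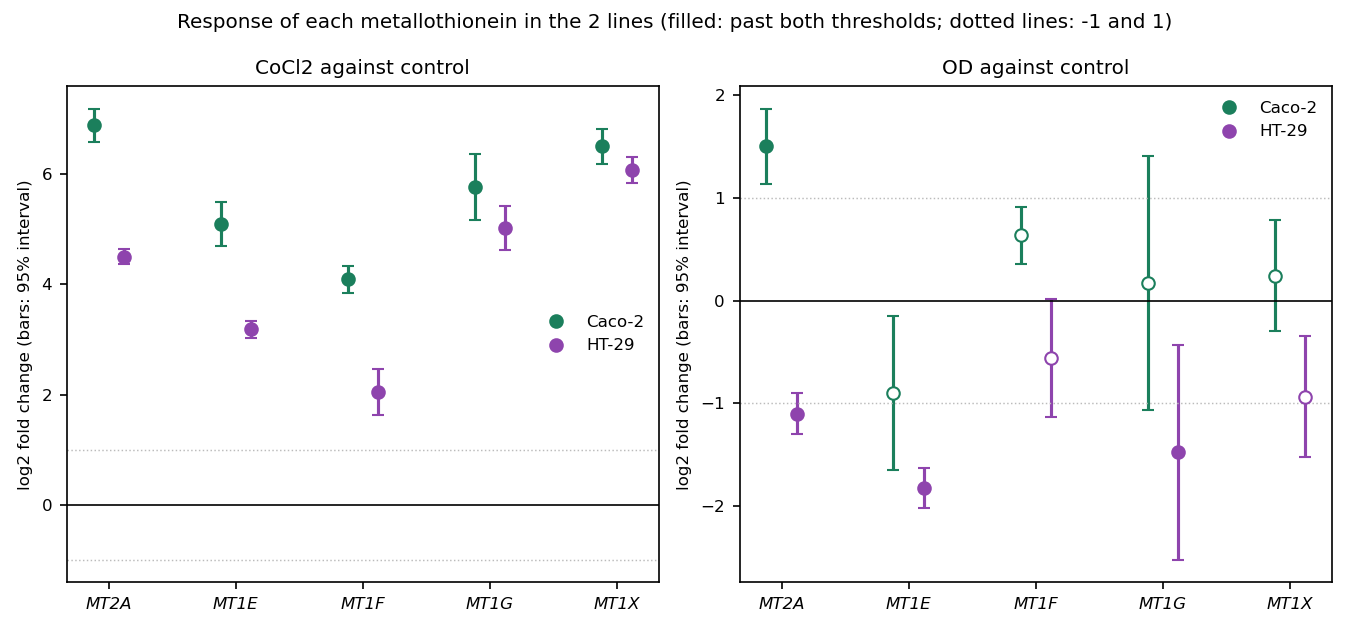
Log2 fold change against control with its 95% interval (vertical axis) for the 5 members tested in both lines, with CoCl2 on the left and OD on the right, green for Caco-2 and purple for HT-29. Filled points passed both thresholds; with CoCl2 all 10 are filled and above 2, and with OD only MT2A in Caco-2 is filled above 0. MT1G could be tested only through its CoCl2 libraries.

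OD, the second HIF prolyl hydroxylase inhibitor, was compared with the same control libraries as CoCl2. In Caco-2, MT2A went from 32, 68 and 72 reads to 162, 167 and 153 reads, or from 3.74 ± 1.67 to 10.4 ± 0.462 CPM. All OD libraries were above all controls (2.83-fold, log2 fold change 1.50, SE 0.19, FDR 3.69e-07). MT1F was at 8.24 ± 2.03 CPM in the controls and at 12.7 ± 1.43 with OD without overlap, a difference that passed the FDR but not the fold threshold (log2 0.64, SE 0.14, FDR 0.000591).

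No other member passed in Caco-2 with OD. MT1E had 7, 16 and 6 reads against 11, 16 and 28 (log2 fold change -0.90, 95% interval -1.64 to -0.15, FDR 0.0530). MT1X had 39, 25 and 27 reads (log2 0.24, 95% interval -0.29 to 0.78, FDR 0.478) and MT1G had 3, 5 and 2 (log2 0.17, 95% interval -1.06 to 1.40, FDR 0.840), both overlapping the controls. MT1H had 0, 2 and 0 reads, MT1A had 5, 1 and 4 and MT1M had none. With OD 1 of 6 tested members was called, MT2A, where 11.7% of 16034 genes were called and 4.43% were called higher. MT1G and MT1H were testable only through their CoCl2 libraries, and of the other 4 members 1 was called. The median log2 fold change of these 4 was 0.44, against -0.02 over all genes tested. Without Caco-2 control replicate 1 or OD replicate 2, MT1E was called lower too (log2 -1.23 and -1.39), and MT2A was called in every fit that left out 1 library (log2 1.14 to 1.75).

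In HT-29, OD lowered MT1E and MT2A, and MT1G was called lower on few reads. MT1E had 47.0, 40.5 and 46.9 CPM in the controls and 10.1, 15.1 and 12.6 CPM with OD, with no overlap (log2 fold change -1.82, SE 0.10, FDR 5.95e-15). MT2A had 13.7, 14.2 and 17.0 CPM in the controls and 7.04, 6.91 and 7.04 CPM with OD (log2 -1.10, SE 0.10, FDR 2.56e-10). MT1G had 6, 9 and 7 reads in the controls and 1, 3 and 3 with OD (log2 -1.48, SE 0.53, FDR 0.0167).

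MT1X had 20, 24 and 38 reads in the HT-29 controls and 11, 22 and 6 with OD, which passed the FDR but not the fold threshold (log2 -0.94, SE 0.30, FDR 0.00760). MT1F had 20, 16 and 32 reads in the controls and 11, 19 and 12 with OD, with overlap (log2 -0.56, 95% interval -1.13 to 0.01, FDR 0.0919). MT1A had 4, 5 and 2 reads with OD, and MT1H and MT1M had none. In all 3 of 5 tested members were called lower, where 17.1% of 15812 genes were called and 7.57% were called lower, and without MT1G, testable only through its CoCl2 libraries, 2 of 4 were. The median log2 fold change was -1.02 over these 4 and -1.10 over the 5, against 0.01 over all genes tested. The calls of MT1G and MT2A turned on single libraries: MT1G was at log2 -1.24 (FDR 0.0743) without control replicate 2 and at -1.10 (FDR 0.0997) without OD replicate 1, and MT2A was at -0.99 without control replicate 3. MT1X was called lower without OD replicate 2 (log2 -1.58).

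The opposite movement of MT2A gave the largest difference between the lines with OD among the 5 members compared (HT-29 less Caco-2 -2.62 on the log2 scale, SE 0.22, FDR 1.09e-11). MT1F (difference -1.22, SE 0.35, FDR 0.00455) and MT1X (difference -1.20, SE 0.45, FDR 0.0288) were also called lower in this test. The differences of MT1E (-0.95, 95% interval -1.84 to -0.06, FDR 0.0937) and MT1G (-1.66, 95% interval -3.30 to -0.03, FDR 0.110) did not pass. With OD 3 of 6 members were called, all lower, where 15.2% of genes were called and 6.24% were called lower. The 6 include MT1H, for which no estimate could be had, and MT1G, testable in each line only through its CoCl2 libraries. Neither is among the 3 called. The call of MT1X was lost without Caco-2 control replicate 1, Caco-2 OD replicate 1, HT-29 control replicate 3, HT-29 OD replicate 1 or HT-29 OD replicate 3 (-1.14 to -0.82, FDR 0.0697 to 0.132). MT1E was called without Caco-2 control replicate 3 (-1.44, FDR 0.0138) or HT-29 OD replicate 2 (-1.09, FDR 0.0432).

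Set directly against OD, CoCl2 gave higher levels of every tested member. In Caco-2 the log2 difference ran from 3.45 (SE 0.12) for MT1F and 5.38 (SE 0.14) for MT2A to 6.26 (SE 0.16) for MT1X among the members with reads in all groups. MT1H had 196 reads with CoCl2 and 2 with OD over 3 libraries each, a ratio of 101 with a counting interval of 27.6 to 839.5. In Caco-2 this made 6 of 6 called higher, where 11.7% of all genes were called and 5.21% were called higher. In HT-29 it ran from 2.60 (SE 0.23) for MT1F through 5.60 (SE 0.08) for MT2A to 7.01 (SE 0.14) for MT1X, with 5 of 5 called higher, where 29.9% of all genes were called and 10.8% were called higher. The largest FDR among these 11 tests was 6.92e-09. Without MT1G and MT1H, tested only through their CoCl2 libraries, 4 of 4 were called higher in each line. The agents differ in dose as well as in kind, at 300 and 5 µM.

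Reads that paralogs exchange do not alter their sum, so the 8 members were also added together. The sum was 9.32, 17.4 and 18.7 CPM in the Caco-2 controls, 796, 734 and 804 with CoCl2, and 27.3, 26.7 and 24.4 with OD. In HT-29 it was 63.9, 57.8 and 67.1 CPM in the controls, 827, 849 and 732 with CoCl2, and 18.6, 24.9 and 20.9 with OD. The control sums of the lines did not overlap, whereas the CoCl2 sums did, as did the OD sums at their edges. The log2 change of the sum with CoCl2 was 5.70 (SE 0.15) in Caco-2 and 3.78 (SE 0.07) in HT-29, and with OD it was 0.80 (SE 0.15) and -1.54 (SE 0.08). No p was computed for a sum over chosen genes.

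The make-up of this sum changed with treatment. With CoCl2 in Caco-2, the share of MT2A went from 23.8% to 55.6% and that of MT1X from 10.8% to 19.4%, while MT1F went from 55.8% to 17.9%. In HT-29 the share of MT1E went from 71.2% to 47.1%, with MT2A going from 23.8% to 39.8% and MT1X from 2.24% to 11.1%. In each of these cases the control and CoCl2 libraries did not overlap. With OD the share of MT2A was 39.9% in Caco-2 and 33.1% in HT-29.

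**Figure D4:**
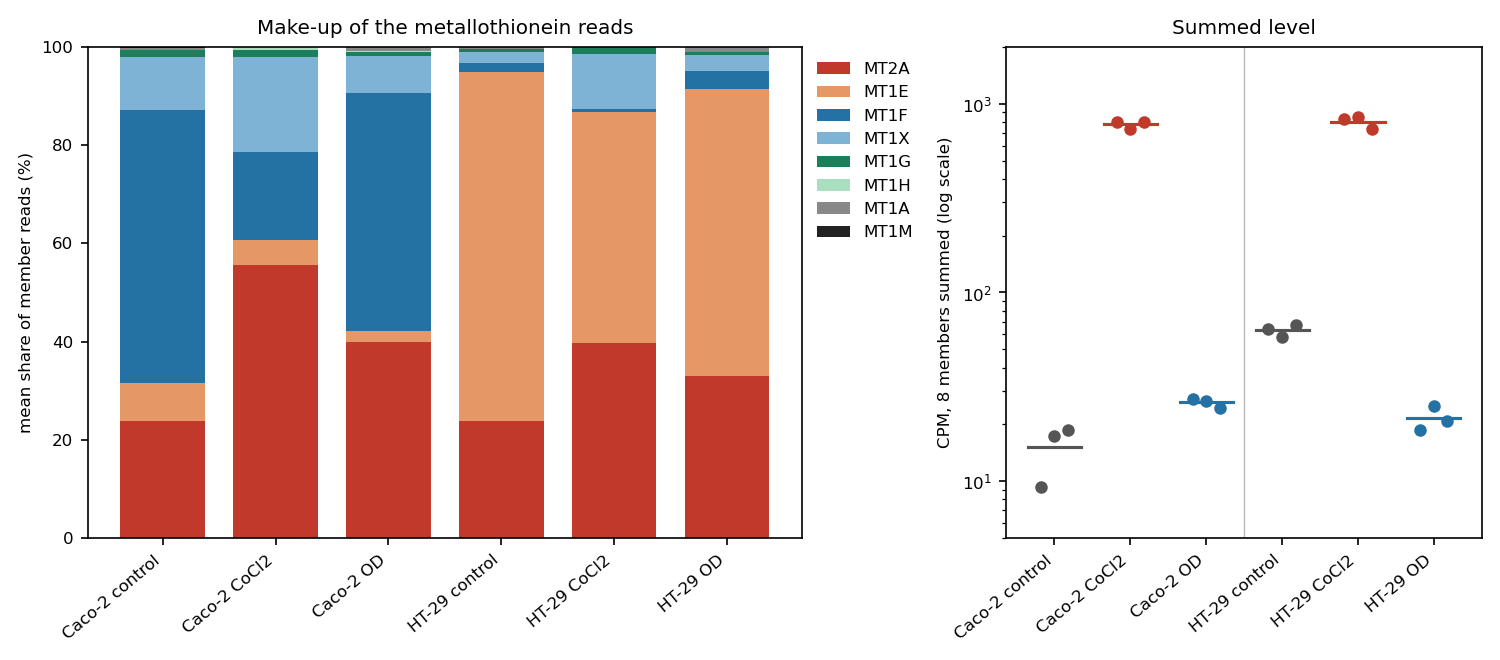
Left, mean share of each member in the reads of the 8 metallothioneins (vertical axis, %) for the 6 groups; right, the summed level in CPM on a log axis, with 1 point per library and a bar at the group mean. MT1F (dark blue) takes 55.8% in Caco-2 controls and MT1E (orange) 71.2% in HT-29 controls, and the CoCl2 sums of both lines lie between 732 and 849 CPM.

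Per kilobase of exons, the order of the members under CoCl2 in Caco-2 was MT2A (473 ± 26.6 CPM per kb), MT1X (87.3 ± 3.86), MT1F (75.1 ± 4.60), MT1E (38.1 ± 1.68), MT1G (14.4 ± 1.46) and MT1H (5.99 ± 1.71), with no overlap between neighbours in this order. In HT-29 with CoCl2, MT1E (359 ± 31.9) and MT2A (349 ± 27.1) overlapped at the top, followed by MT1X (51.5 ± 2.51), MT1G (15.6 ± 0.525) and MT1F (2.43 ± 0.241). With OD, MT2A (11.4 ± 0.506 CPM per kb) led MT1F (6.85 ± 0.771) in Caco-2, and MT1E (12.0 ± 2.37) led MT2A (7.66 ± 0.0818) in HT-29. MT1A and MT1M were under 1 CPM per kb in every group. These orders rest on the joined exon lengths, so they depend on which transcripts are annotated.

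The remaining metallothionein rows were far smaller. Of 12 other genes and pseudogenes in the table, MT1XP1 and MT2P1, which carry copies of MT1X and MT2A sequence, were the 2 tested in Caco-2. In both lines they passed the filter on low counts only through their CoCl2 libraries, so no count of calls is given for them. MT1XP1 had 0 to 3 reads in the Caco-2 controls and 11 to 19 with CoCl2, and MT2P1 had 0 to 1 and 14 to 21. In HT-29 MT1XP1 had 0 to 3 and 16 to 20 reads and MT2P1 had 0 to 4 and 15 to 23. MT3, a form known from brain, had 14, 12 and 26 reads in the HT-29 controls, 10, 2 and 6 with CoCl2, and 3, 4 and 8 with OD (log2 with OD -1.64, SE 0.43, FDR 0.00168). The 12 rows together never held more than 48 reads in a library, at most 3.07% of the member reads.

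MTF1, the zinc sensor that drives these genes, was itself called higher with CoCl2 in both lines. In Caco-2 it had 17.0 ± 1.04 CPM in the controls and 36.3 ± 0.385 with CoCl2 (log2 1.10, SE 0.10, FDR 5.12e-10). In HT-29 it had 46.7 ± 3.40 and 95.2 ± 2.07 CPM (log2 1.13, SE 0.06, FDR 2.74e-15). With OD it was at 28.0 ± 1.00 CPM in Caco-2 (log2 0.72, SE 0.10, FDR 1.49e-06, short of the fold threshold) and at 46.9 ± 4.82 in HT-29 (log2 0.01, SE 0.06, FDR 0.862). The difference between the lines with OD was -0.72 (SE 0.11, FDR 3.64e-06). Of the 8 listed regulators, 1 of 8 tested was called higher with CoCl2 in Caco-2 and 3 of 7 in HT-29, where HIF1A (log2 1.40, SE 0.05) and USF1 (log2 1.06, SE 0.07) joined MTF1, and none was called with OD in either line. Over all genes, 9.13% and 17.4% were called higher with CoCl2, so the count in Caco-2 was near the share of all genes. With OD, 11.7% and 17.1% of all genes were called in either direction. NR3C1, the glucocorticoid receptor, had 1083 to 1192 reads in the Caco-2 controls and 0 to 6 in any HT-29 library.

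Among zinc transporters, SLC30A1, the plasma membrane zinc exporter and a known MTF1 target, rose with CoCl2 in both lines. It had 90.8 ± 13.4 CPM in Caco-2 controls and 242 ± 9.69 with CoCl2 (log2 1.41, SE 0.09, FDR 2.60e-12), and 46.3 ± 2.01 and 148 ± 16.1 CPM in HT-29 (log2 1.79, SE 0.06, FDR 1.73e-19). With OD it was at 101 ± 10.0 and 51.9 ± 2.28 CPM (log2 0.14, FDR 0.202, and 0.18, FDR 0.0194). SLC39A10, a zinc importer, fell with CoCl2 in both lines, by 1.32 (SE 0.11) and 1.53 (SE 0.07) on the log2 scale. With OD its log2 fold change was -0.63 (SE 0.11) in Caco-2 and 0.53 (SE 0.06) in HT-29, neither past the fold threshold, and the difference between the lines was called (1.15, SE 0.13, FDR 3.27e-09). Of 20 listed transporters, 1 was called higher and 2 lower of 20 tested with CoCl2 in Caco-2, and 2 higher and 3 lower of 19 in HT-29, smaller shares than the 23.4% and 41.3% of all genes called in either direction. With OD the counts were 1 higher and 0 lower, and 1 higher and 1 lower, where 11.7% and 17.1% of all genes were called. The gene higher with OD was in both lines SLC30A4 (log2 1.24 in each, SE 0.38 and 0.24), and the lower in HT-29 was SLC30A2, at -2.07 (SE 0.31).

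**Figure D5:**
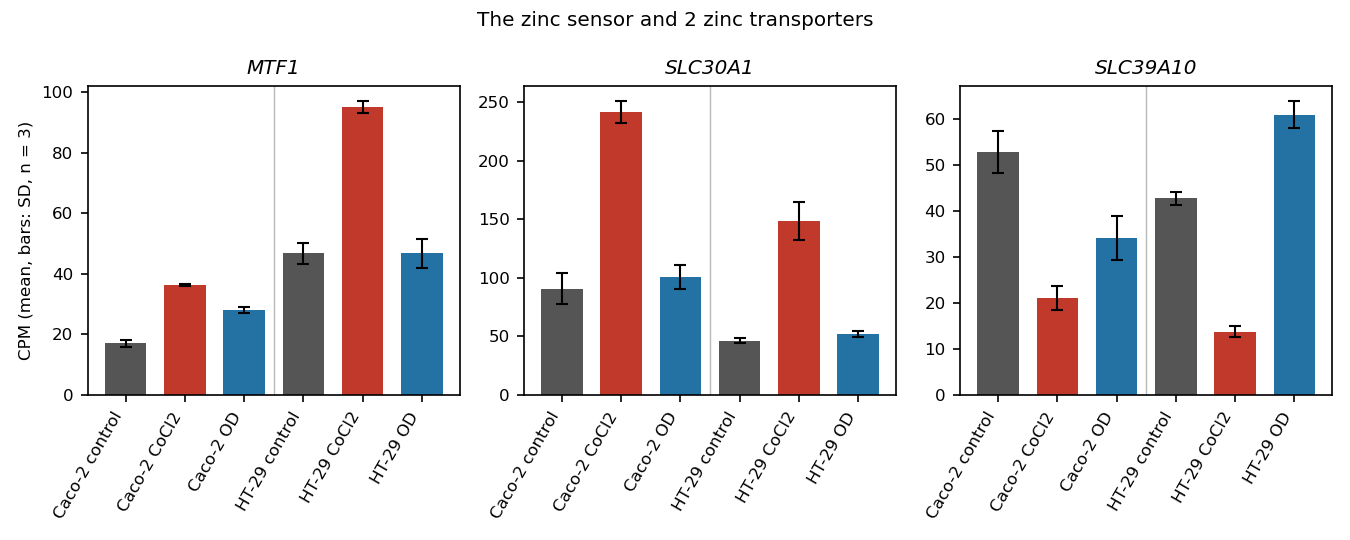
Level of MTF1, SLC30A1 and SLC39A10 in the 6 groups, in CPM (vertical axis; bars start at 0 and show the mean, with the SD over 3 libraries). MTF1 and SLC30A1 are higher and SLC39A10 is lower with CoCl2 (red) than in controls (grey) of both lines.

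Among 12 genes of copper handling, 1 was called higher and 1 lower of 10 tested with CoCl2 in Caco-2, and 2 of 10 were called higher in HT-29. Over all genes, 23.4% and 41.3% were called in either direction and 9.13% and 17.4% higher, so these counts were near or below the shares over all genes. SOD1, the copper and zinc superoxide dismutase, rose in both lines (log2 1.21, SE 0.08, and 1.84, SE 0.05), COX11 fell in Caco-2 (by 1.21, SE 0.12) and ATP7A, a copper exporter, rose in HT-29 (1.37, SE 0.05). None was called with OD, where 11.7% and 17.1% of all genes were called. Neighbours of the cluster in 16q13 were counted to see whether the region moved as a whole. Of 10 tested in Caco-2, none was called higher and NLRC5 was called lower with CoCl2 (23.4% of all genes were called). With OD none was called there (11.7% of all genes were called). In HT-29, HERPUD1 and NLRC5 were called higher with CoCl2 (log2 1.18, SE 0.05, and 1.31, SE 0.20) and with OD (1.06, SE 0.05, and 3.27, SE 0.15), and CETP was called higher with OD (3.53, SE 0.63). Over all genes in HT-29, 17.4% were called higher with CoCl2. With OD, 3 of 11 neighbours tested were called higher, where 1502 of all 15812 genes were called higher and 17.1% in either direction. Of 8 glucocorticoid receptor targets, 3 of 7 tested were called higher with CoCl2 in Caco-2 (DUSP1, ERRFI1 and PER1), where 9.13% of all genes were called higher, and in HT-29 2 were higher and 3 lower of 7, where 41.3% were called in either direction. With OD, 1 was called higher in Caco-2 (DUSP1, log2 1.61, SE 0.11), and 2 were higher and 1 lower in HT-29, where 11.7% and 17.1% of all genes were called.

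Genes whose levels ran most like the summed metallothioneins were ranked by Pearson r over the 9 libraries of a line, as a description. In Caco-2 they were UCHL1 (0.998), ZFAND2A (0.995), HMOX1, the haem oxygenase of stress responses (0.994), CRY2 (0.994) and CRYBB2P1 (0.994). In HT-29 they were API5 (0.999), USP33 (0.998), CHPF2 (0.998), NIF3L1 (0.998) and RBM14 (0.998). Such values were common, with 497 of 16026 genes in Caco-2 and 926 of 15804 in HT-29 above 0.95, and the 9 libraries of a line share 3 treatments.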

How the data were processed

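For 18 mRNA libraries the authors deposited unnormalised counts of reads, gene by gene; per the labels and the study's methods, single-end reads of 75 bases from a stranded mRNA kit were checked with FastQC 0.11.9, trimmed with cutadapt 2.10, aligned to GRCh38.p13 with STAR 2.7.5b and counted on a GENCODE annotation. The counting tool, its use of strand and its handling of reads with several places are not given in the sources used here. The authors also deposited log2 values (RPKM, made with edgeR 3.30.3) in which MT1E stands at 0 in Caco-2 and MT1X at 0 in HT-29 despite 483 to 793 and 1063 to 1395 counts with CoCl2, and MT1A, MT1G, MT1H and MT1M are not listed, so these served as an alternative only. The miRNA tables were not used. All 8 members were found by symbol, groups came from the sample labels, and 0 columns were left without a sample.

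Differential expression was tested on the counts with edgeR 4.0.16 in R 4.3.3 (quasi-likelihood F test, two-sided, TMM scaling, filterByExpr, 1 coefficient per group), in each line over its 9 libraries and, for differences between lines, over all 18. FDR is the Benjamini-Hochberg value over all genes tested, and thresholds were those of the study. Each SE was worked back from the log2 change and its F statistic. Each 95% interval of a log2 value assumes a normal spread with that SE. Such an interval can therefore leave out no change where the F test itself has a p over 0.05. A filter on low counts left MT1A and MT1M untested in both lines and MT1H untested in HT-29. MT1G in both lines and MT1H in Caco-2 passed it only through their CoCl2 libraries. Alternatives were RLE factors, library size only, no filter, DESeq2 1.42.0, FDR alone, a replicate block, leaving out each library, and limma 3.58.1 on the log2 values. On simulated counts for CoCl2 against control in Caco-2 (16034 genes), 100% of 100 genes changed by log2 2 were recovered. The changed genes were drawn from those above a limit on the expected count, so this share does not cover members with few reads or smaller changes. Replicates differed by more than counting error (chi-square per degree of freedom 2.94 to 8.56). Counting intervals are exact at 95% and, like the floor of 3 counts, cover counting error only. The text names all 8 members and, from each list, at most 5 genes per line by largest change, with MTF1 and SLC30A1 always. The members and lists were chosen with earlier results of these data known. A result of the list of neighbouring genes is not reported here.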

Additional observations from a re-analysis of the deposited data

Results flagged for a closer look

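The response of 3 members to CoCl2 differed between the lines in a test of the difference itself over all 18 libraries (edgeR, log2 change in HT-29 less that in Caco-2): MT2A at -2.49, MT1F at -2.16 and MT1E at -2.03. All 3 rose in both lines, and rose less in HT-29. With OD, the same test gave -2.62 for MT2A, -1.22 for MT1F and -1.20 for MT1X. The call of MT1X was lost in some fits that left out 1 library (FDR 0.0697 to 0.132). MT2A was called higher in Caco-2 and lower in HT-29, whereas neither MT1F nor MT1X passed both thresholds in either line alone. HT-29 also had a higher control level of MT2A and MT1E and 0 to 6 reads of NR3C1 per library. Its summed enterocyte markers were lower, at 15.8 to 37.3 CPM, against 2879 to 4450 in Caco-2, where most of the sum was APOA1. The part of these in the differences was not tested, and line and culture state cannot be told apart.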

How the results depend on the processing

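No called result changed direction under any alternative run; the uncalled changes of MT1X and MT1G with OD in Caco-2 (log2 0.24 and 0.17) ran from -0.13 to 0.47 and from -0.16 to 0.75 when each library was left out. Limma on the deposited log2 values called 3 members instead of 6 in Caco-2 and 3 instead of 5 in HT-29, both for CoCl2 against control and for CoCl2 against OD, because that table holds 3 testable members per line. For OD against control in Caco-2, 2 members instead of 1 were called with library size only (MT1E added, log2 -1.05) and with the FDR alone (MT1F added), and 1 to 2 when each library was left out. Of 108 counts of members from fits without 1 library, 106 stayed within 1.5 times the reported count, and single members changed side in 15 of such fits (all with OD or between controls). Without the filter on low counts, CoCl2 against control called 7 of 8 members in Caco-2 and 6 of 8 in HT-29. The MT1G and MT1H values rest on few reads, and depth limits what can be said of MT1A and MT1M.

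With library size only, the median of all genes shifted against TMM by -0.32 (CoCl2) and -0.15 (OD) for Caco-2, and by -0.63 and -0.14 for HT-29. The log2 change of the summed members was then 3.14 instead of 3.78 for CoCl2 in HT-29, and 4.73 instead of 4.90 and 4.82 instead of 5.32 for CoCl2 against OD in Caco-2 and HT-29. Over all genes, calls higher and lower for CoCl2 against control went from 1464 and 2283 to 870 and 3546 for Caco-2, and from 2749 and 3775 to 1295 and 6250 for HT-29. For OD against control they went from 711 and 1165 to 500 and 1644, and from 1502 and 1197 to 1225 and 1596. For CoCl2 against OD they went from 835 and 1033 to 602 and 1524, and from 1702 and 3032 to 783 and 5279. For the CoCl2 response between lines they went from 1396 and 2479 to 1005 and 3319.

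By the FDR alone, the calls over all genes were 10370 instead of 3747 (CoCl2, Caco-2), 8084 instead of 1876 (OD), 7957 instead of 1868 (CoCl2 against OD), 13097 instead of 6524 (CoCl2, HT-29), 10876 instead of 2699 (OD) and 12286 instead of 4734 (CoCl2 against OD). Between the lines they were 8916 instead of 3875, 7682 instead of 2724 and 14175 instead of 8202. Limma on the log2 values gave 1098, 381 and 341 calls for Caco-2 and 2520, 744 and 1455 for HT-29.

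Replicates shared only a number: same-numbered libraries had correlations of deviations of -0.06 to 0.07, none over 0.1, and 10 of 36 comparisons matched best by number. A replicate block left the called members at 6 and 1 (CoCl2 and OD, Caco-2) and at 5 and 3 (HT-29), and over all genes gave 3737 and 1891, and 6520 and 2700 calls.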
